A study of Caenorhabditis elegans with 6 samples.

Results

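The 10 genes *emb-9*, *let-2*, *epi-1*, *lam-1*, *lam-2*, *lam-3*, *unc-52*, *nid-1*, *cle-1* and *ost-1* encode basement membrane components of *Caenorhabditis elegans*. They were chosen by gene symbol among 17118 genes named by the array's platform annotation, and all 10 were represented on the array. Each gene was read from its brightest probe set by the mean of the 6 arrays, and its other probe sets are given beside it. RNA was compared between fed larvae of the first larval stage (L1) and embryos of mixed ages, both of the wild-type strain N2, with 3 Affymetrix arrays per stage. Eggs of bleached adults were left for 24 h at 20 °C in M9 buffer to hatch, and the L1 larvae were then fed *Escherichia coli* HB101 at 10 mg/mL for 3 h at 10 worms per µL, per the labels. Embryos came from bleached gravid adults grown on agar with the same bacteria. The titles of all 3 embryo samples carry XX and the same string of digits, and the titles of the L1 samples carry neither. These titles do not say what the string stands for. The series was made to compare the RNA of the stages.

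Basement membranes are thin sheets of extracellular matrix that underlie epithelia and surround muscle, pharynx, gonad and nerve cord. Laminin trimers, each of an alpha, a beta and a gamma chain, form the sheet that cells bind first, and collagen IV trimers form a second network that gives the sheet mechanical strength. Nidogen and perlecan are thought to link or organise these networks, collagen XVIII is a heparan-bearing collagen, and SPARC is a collagen-binding glycoprotein. In *C. elegans*, most collagen IV and SPARC is made by body wall muscle and becomes part of sheets on other tissues as well, and laminin is laid down before collagen IV during embryogenesis.

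All values below are RMA expression values on the log2 scale, or differences of them (fed L1 minus mixed embryo), tested with limma across all genes at a Benjamini-Hochberg adjusted p under 0.05. A value belongs to a probe set, so values of different genes do not give their relative levels. Correlations over probe sets, which are not independent replicates, were 0.993 to 0.997 within a stage and 0.775 to 0.791 between stages. Separate cultures are not stated for the replicates, so a p-value here sets the difference against a spread between samples that may be technical, and 3 arrays per stage limit the precision. Embryo arrays were re-analysed from an earlier series, so the array set and the stage cannot be told apart, nor can stage, hatching in buffer and feeding. For the L1 samples, titles and stage labels give L1 larvae but the source label gives embryos. Of 10 early embryo markers all 10 fell in L1, with summed log2 levels of 55.6 to 56.3 on L1 arrays and 89.6 to 93.8 on embryo arrays, and all 10 intestine markers rose (110.7 to 111.0 against 75.7 to 78.2). Among them *mex-6* and *spn-4*, which encode regulators of early embryonic polarity and fate, fell by 5.38 (SE 0.18, to background in L1) and 5.26 (SE 0.16). The embryo marker *tbx-37*, also called lower, lay at background in both stages. The largest rises among intestine markers, 7.31 and 6.88, were those of the protease genes *cpr-1* and *cpr-4*. None of 5 measured yolk protein genes of the adult intestine passed the limma test (3 lay at background in both stages, and the largest difference was 0.21, in *vit-6*). Of 9 sperm markers 4 rose in L1, against 33.2% of all genes, including *msp-31* by 1.96 and *msp-3* by 0.60 from background in embryos. *spe-41* and *spe-9* also rose, by 0.25 and 0.34, from background in embryos to means just above it in L1. Summed levels of the sperm markers were 48.3 to 49.0 in L1 and 44.8 to 45.1 in embryos, and their part in the results below was not tested.

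The basement membrane genes did not move as a block. All laminin chains and nidogen were lower in L1, perlecan was slightly lower, and the collagen IV chains and SPARC showed no difference past the threshold. In all, 6 of the 10 genes fell, 0 rose and 4 did not pass, while over all genes 31.2% fell and 33.2% rose. The call of *unc-52* was lost in 6 of 16 alternative settings. *cle-1* was at background in both stages, and a probe set not used for it, listed under 2 gene records, was higher in L1 by 1.73. With arrays centred on ribosomal protein genes, 9686 of all 17118 genes were lower in L1, against 5339 in the values as deposited, and the share of lower among called genes was 71.3%, against 48.4%. With that centring 8 of the 10 genes were lower, the added ones being *ost-1* and *cle-1* (-0.25, limma adjusted p = 0.0448). The total of 6 called genes lies near the background, since 64.4% of all genes were called in one direction or the other. For the same 6 genes every L1 array lay below every embryo array, and 70.6% of all genes had stages without overlap in one direction or the other. Falls of at least 2-fold were found for 4 members (*lam-1*, *lam-2*, *lam-3* and *nid-1*), against 17.5% of all genes. The median difference of the 10 genes was -0.47, and that of all genes was 0.048. When genes under the 50th percentile of level were left out, *cle-1* among them, 5 members were lower in L1. In that brighter 50% of the 17118 genes falls outnumbered rises, with 4030 genes lower and 3274 higher and a median difference of -0.18. The share of 31.2% lower over all genes is therefore too low a background for these 5 members. In whole-animal RNA, fewer cells of a type and less RNA per cell cannot be told apart.

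**Figure D1:**
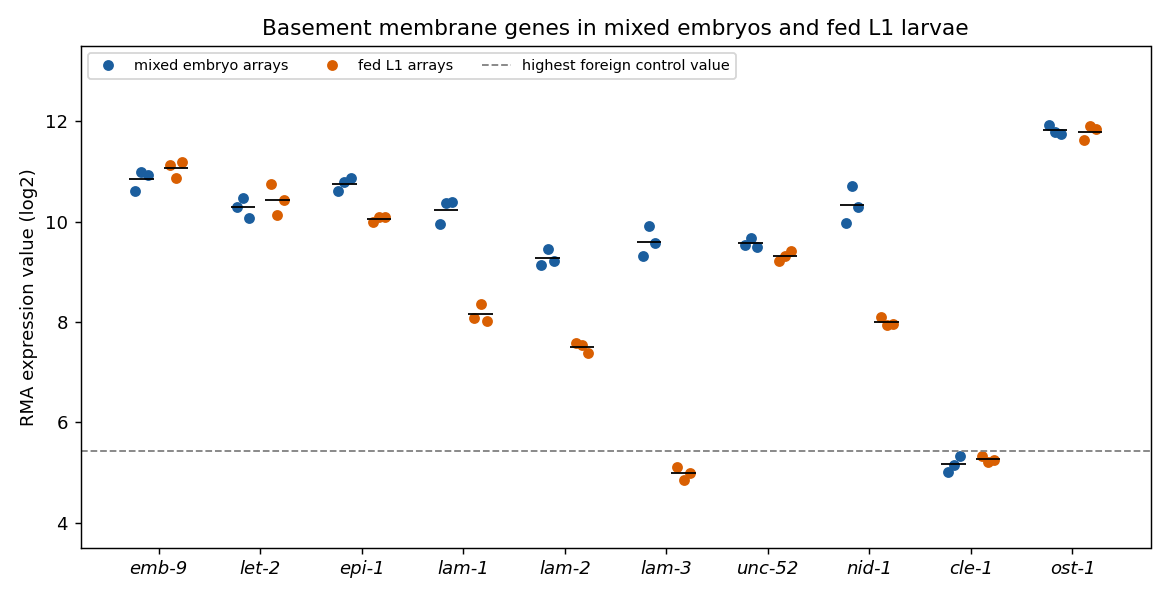
RMA expression value (log2) of each basement membrane gene on the 3 mixed embryo arrays (blue) and the 3 fed L1 arrays (orange), with short lines at the stage means and a dashed line at 5.43, the highest foreign control value. The stages are apart for the laminin genes and *nid-1*, the L1 values of *lam-3* lie under the dashed line, and the stages overlap for *emb-9*, *let-2*, *cle-1* and *ost-1*.

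The collagen IV genes *emb-9* and *let-2* encode the alpha chains that assemble into 1 kind of trimer. *emb-9* had values of 11.13, 10.87 and 11.19 on the L1 arrays and 10.60, 10.99 and 10.94 on the embryo arrays. The stages overlapped, and the difference of 0.22 (SE 0.13, 95% interval -0.068 to 0.51, n = 3 per stage) did not pass (limma adjusted p = 0.165). The other probe set of *emb-9* gave -0.18 (SE 0.14), which did not pass either, so its probe sets differ in sign. *let-2* had values of 10.74, 10.13 and 10.43 in L1 and 10.30, 10.47 and 10.08 in embryos. Its arrays overlapped too, with a difference of 0.15 (SE 0.16, 95% interval -0.20 to 0.51, limma adjusted p = 0.431). These intervals exclude a 2-fold change in either direction on the deposited scale. *let-2* is known for stage-dependent alternative splicing, and its only probe set, whose design allows matches to related sequences, gives 1 value for the gene.

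All 4 laminin genes fell, by amounts that ranged from 0.70 to 4.62 on the log2 scale. *lam-3* and *epi-1* encode the alternative alpha chains, often called alpha A and alpha B, of the worm's laminin trimers. *lam-3* read 5.11, 4.84 and 4.98 in L1 against 9.31, 9.91 and 9.57 in embryos. No L1 array came near an embryo array, and the gene fell by 4.62 (SE 0.15, limma adjusted p = 1.09e-09). Its L1 values lay under 5.43, the highest value of 32 foreign control probe sets (bacterial and yeast transcripts), which served as a measure of background. The fitted change therefore has no exact size. The embryo mean of this probe set lay 17.9-fold above that control value, with no allowance for the spread between arrays. The other *lam-3* probe set fell by 2.99 (SE 0.16, 7.92-fold), from 7.74 ± 0.36 in embryos to 4.75 ± 0.060 in L1 (SD, n = 3 per stage). It too ended under the control level, and the size of the fall depends on the probe set.

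*epi-1*, in contrast, stayed well above background in both stages. Its values were 9.99, 10.10 and 10.08 in L1 and 10.61, 10.78 and 10.87 in embryos. The L1 arrays were all lower, by 0.70 on average (SE 0.096, limma adjusted p = 8.27e-05), a 1.62-fold difference. *epi-1* has 1 probe set naming it alone.

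The beta chain gene *lam-1* and the gamma chain gene *lam-2*, whose products join with either alpha chain, fell by intermediate amounts. *lam-1* had values of 8.08, 8.36 and 8.01 in L1 and 9.94, 10.36 and 10.39 in embryos. It was lower on every L1 array than on any embryo array, by 2.08 (SE 0.14, limma adjusted p = 2.87e-07), or 4.24-fold. *lam-2* had values of 7.58, 7.54 and 7.39 in L1 and 9.14, 9.45 and 9.21 in embryos, and was lower in L1 by 1.76 (SE 0.11, limma adjusted p = 1.27e-07), or 3.40-fold. The second probe sets moved the same way, by -2.61 (SE 0.18) for *lam-1* and -1.92 (SE 0.12) for *lam-2*, and the one of *lam-1* reached 4.83 ± 0.084 in L1, under the control level.

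*nid-1* encodes nidogen, a laminin- and collagen-binding glycoprotein. Its values were 8.09, 7.94 and 7.96 in L1 and 9.98, 10.71 and 10.28 in embryos. The L1 arrays lay close together and the embryo arrays were the most scattered of the 10 genes (SD 0.37), yet the stages did not overlap. *nid-1* fell by 2.33 (SE 0.16, limma adjusted p = 3.68e-07), a 5.02-fold difference. Its only probe set is of the design that allows matches to related sequences, so no other probe set shows the size of this fall. In order of size after *lam-3*, the 95% interval of *nid-1* (-2.69 to -1.97) overlapped that of *lam-1* (-2.40 to -1.77). The interval of *lam-1* overlapped that of *lam-2* (upper end -1.53). Such overlap is no test of a difference between genes read on the same arrays. *nid-1* was not tested against either laminin gene, and *lam-1* minus *lam-2* is given below.

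*unc-52* encodes perlecan, a large proteoglycan under body wall muscle that anchors the myofilament lattice. It has 17 transcripts in the RefSeq annotation of WBcel235, the most of the 10 genes, and 3 probe sets naming it alone. The probe set with the highest mean read 9.21, 9.31 and 9.41 in L1 and 9.53, 9.67 and 9.50 in embryos. The stages were narrowly apart, with a difference of -0.25 (SE 0.094, limma adjusted p = 0.0371). That call was lost without L1 replicate 1 (-0.20), L1 replicate 2 (-0.25) or embryo replicate B (-0.20), and after another quantile normalization (-0.097, adjusted p = 0.429). The other 2 probe sets gave larger falls, of -1.03 (SE 0.12) and -0.85 (SE 0.15), and the mean of all 3 gave -0.71. A further probe set, listed under 2 gene records that both carry this symbol and not used for the gene, went the other way by 0.38 (SE 0.14).

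*cle-1*, the collagen XVIII gene, known for roles in cell and axon migration and at synapses, was not measured above background by the probe sets that name it alone. The brighter one read 5.33, 5.20 and 5.26 in L1 and 5.01, 5.14 and 5.33 in embryos. All these values lie under 5.43, and the difference of 0.10 (SE 0.10) did not pass (limma adjusted p = 0.423). The second one differed by -0.029. A probe set listed under 2 gene records that both carry the symbol *cle-1* read 8.77, 8.50 and 8.78 in L1 and 6.79, 7.06 and 7.02 in embryos. It lay above background in both stages and was higher in L1 by 1.73 (SE 0.11, limma adjusted p = 3.75e-07 over all probe sets), so that the direction for *cle-1* depends on whether this probe set is admitted.

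*ost-1*, which encodes SPARC, differed least. Its values were 11.63, 11.91 and 11.84 in L1 and 11.93, 11.78 and 11.75 in embryos. The stages overlapped, with a difference of -0.028 (SE 0.10, 95% interval -0.26 to 0.20, limma adjusted p = 0.836). The other probe set gave 0.012 (SE 0.12). When arrays were centred on ribosomal protein genes, which lowers every difference by 0.35, *ost-1* was lower in L1 by 0.38 and passed.

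**Figure D2:**
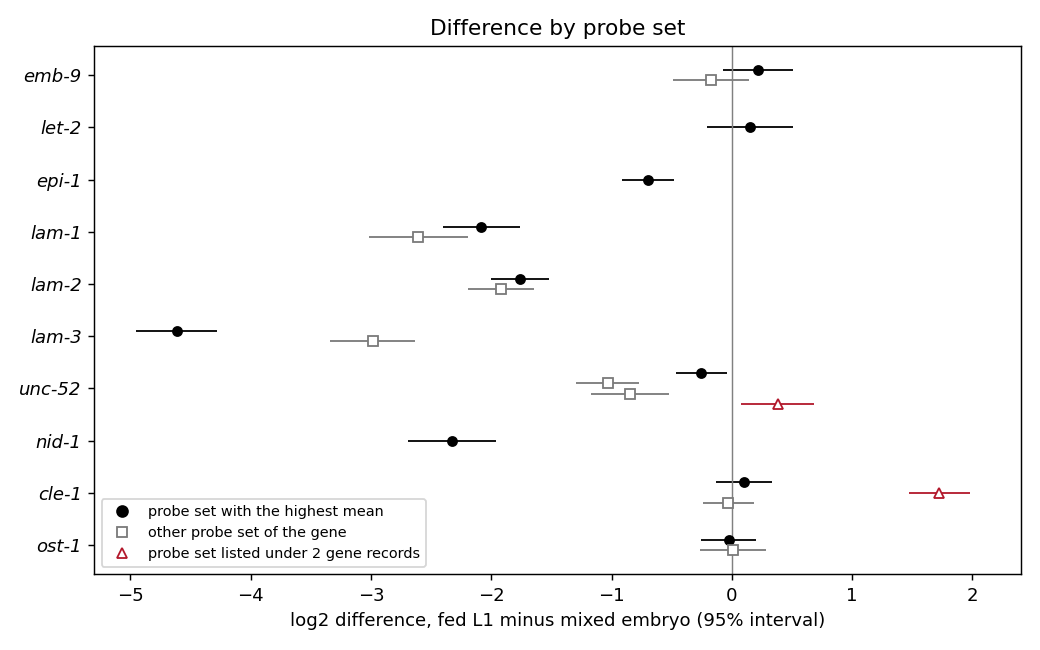
Log2 difference (fed L1 minus mixed embryo) of every probe set of each basement membrane gene, with limma's 95% interval: filled circles for the probe set with the highest mean, open squares for other probe sets, red triangles for probe sets listed under 2 gene records. All laminin probe sets lie left of 0, and the triangle of *cle-1* lies at 1.73.

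Among the 18 probe sets that name 1 of these genes alone, 11 were lower in L1 and 0 were higher in the fit over all probe sets, where 31.4% of probe sets were lower. Of 8 second probe sets, 5 had the sign of the main one, and 1 lay over 1 log2 unit from it, that of *lam-3*. The 3 that differed in sign belonged to *emb-9*, *cle-1* and *ost-1*, none of which passed.

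Within an array, the difference between the log2 values of a pair of genes is unchanged when a constant is added to the whole array. Normalization that shifts genes by their level, such as quantile normalization, can change it, and the pairs were not run under another quantile normalization. The change of this difference between the stages was compared for 6 pairs. The difference itself is between probe sets and is no ratio of transcript levels. The exact permutation test cannot go below p = 0.10 with 3 arrays against 3, so no pair could pass. The alpha chains diverged most. *epi-1* minus *lam-3* was 4.87, 5.25 and 5.10 on the L1 arrays and 1.30, 0.87 and 1.30 on the embryo arrays, a change of 3.92 towards *epi-1* (p = 0.10, the smallest possible in this exact test, 2-sided; 0.20 adjusted over the 6 pairs). The change was 3.11 with the mean of each gene's probe sets, and its size is uncertain since *lam-3* was at background in L1.

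Chains that can share 1 trimer were compared in the same way. For *emb-9* minus *let-2* the change was 0.067, from 0.56 ± 0.28 in embryos to 0.63 ± 0.21 in L1 (SD, n = 3 per stage, exact permutation p = 0.90). For *lam-1* minus *lam-2* it was -0.32, from 0.97 ± 0.20 to 0.65 ± 0.16 (exact permutation p = 0.20), and these arrays overlapped only narrowly. Beside *epi-1*, the beta chain gene *lam-1* lost 1.39, with no overlap between stages (exact permutation p = 0.10, or 0.20 adjusted). *unc-52* gained 2.07 over *nid-1* (exact permutation p = 0.10, or 0.20 adjusted), from -0.76 ± 0.30 in embryos to 1.31 ± 0.17 in L1, and 1.62 with the mean of all probe sets. *cle-1* minus *ost-1* changed by 0.13 (exact permutation p = 0.50), with *cle-1* at background.

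**Figure D3:**
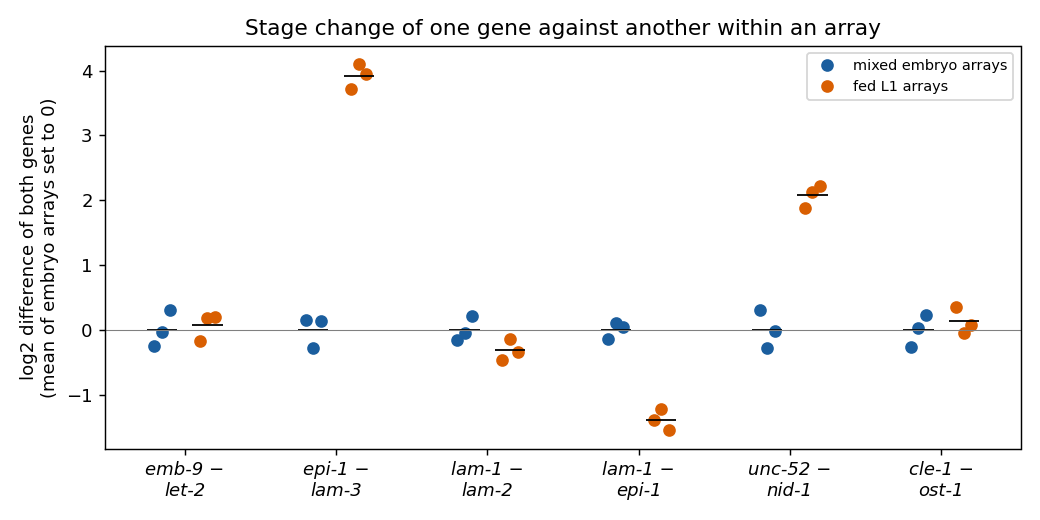
Log2 difference between the genes of each pair on every array, shifted so that the mean of the embryo arrays (blue) is 0, with L1 arrays in orange and short lines at the means. The L1 arrays of *epi-1* minus *lam-3* lie near 3.92 and those of *unc-52* minus *nid-1* near 2.07, whereas *emb-9* minus *let-2* overlaps the embryo arrays.

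The embryo arrays differed among themselves in the genes that fell. Of the 6 such genes, 5 had their lowest embryo value on embryo replicate A, and *unc-52* had it on replicate C. The same array had the highest summed level of the 10 early embryo markers, 93.8 against 89.6 and 92.2 on replicates B and C, and the lowest sum of 13 body wall muscle genes, 126.6 against 129.5 and 128.9. The part of embryo age in the members' values was not tested. Without embryo replicate A, *lam-3* was lower in L1 by 4.76 and *nid-1* fell by 2.50.

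Related genes were counted in lists of the matrix, its receptors and its assembly. Genes named beyond the 2 largest changes each way were picked after their values were seen. Each count below stands beside a background of 31.2% of all genes lower, 33.2% higher and 64.4% called in either direction. In L1, 7 of 13 other matrix protein genes rose and 4 fell, 2 missed the threshold, and the median was 0.73. The rises include *smoc-1*, whose means lay at background in both stages. *fbl-1*, which encodes fibulin, rose by 2.03 (SE 0.15), and *madd-4*, which encodes a secreted organiser of neuromuscular junctions, rose by 1.65 (SE 0.13). The agrin gene *agr-1* fell by 0.81 (SE 0.11). *unc-6*, which encodes the laminin-related guidance cue netrin, fell by 0.77 (SE 0.16), and its other probe set gave -1.41. The papilin gene *mig-6* differed by 0.25 and did not pass, with probe sets from -0.21 to 0.25.

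Enzymes that cut matrix and their inhibitors went both ways. Among 12 such genes there were 5 that rose and 4 that fell, 3 missed the threshold, and the median was 0.25. The falls include *zmp-6*, which lay at background in both stages. The ADAMTS protease gene *adt-2*, known for a role in body size, rose by 3.94 (SE 0.13), and its other probe set gave 1.89. *timp-1*, of the family of metalloprotease inhibitors, rose by 1.31 (SE 0.18) from background in embryos. The metalloprotease gene *zmp-5* fell by 1.01 to background, and *mig-17*, an ADAMTS gene of gonad cell migration, fell by 0.78. *gon-1*, whose ADAMTS product remodels basement membrane in the gonad, was at background in both stages and differed by 0.038.

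Of 13 receptor genes for basement membrane, 7 were lower in L1 and 1 was higher, against 31.2% lower and 33.2% higher over all genes. The other 5 missed the threshold, and the median was -0.95. With arrays centred on ribosomal protein genes 12 were lower, among them *dgn-2* and *dgn-3*, which lay at background in both stages. *dgn-1*, which encodes dystroglycan, a laminin receptor, fell by 1.79 (SE 0.16). The syndecan gene *sdn-1* fell by 1.63 (SE 0.13), and its other probe set gave -2.40. The beta integrin gene *pat-3* fell by 1.32 (SE 0.088) and *ina-1*, which encodes the laminin-binding type of alpha integrin, fell by 1.30 (SE 0.11). The other alpha integrin gene, *pat-2*, which acts with perlecan in muscle, differed by -0.10 and did not pass. The discoidin domain receptor genes *ddr-1* and *ddr-2*, whose relatives in mammals bind collagen, fell by 1.02 and 1.20, and the glypican gene *gpn-1* rose by 1.00 (SE 0.12).

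Integrin adhesion sites were represented by 13 genes with a median of -0.50, of which 7 fell, 4 rose and 2 missed the threshold. *pat-4* and *unc-97*, which encode the integrin-linked kinase homologue and the PINCH protein at the base of muscle attachments, fell by 1.44 (SE 0.11) and 1.19 (SE 0.11). *zyx-1*, the zyxin gene, rose by 2.08 (SE 0.094). *unc-96*, which encodes a protein of the muscle M-line, rose by 1.49 (SE 0.11), and its other probe set gave 0.92. Talin, encoded by *tln-1*, fell by 1.14, but its 6 probe sets ranged from -1.75 to 1.50.

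Genes for collagen processing in the secretory pathway were mostly lower in L1. A fall was called in 13 of 14 measured genes and a rise in 0, and the median was -0.89. The falls include general chaperone and folding genes (*hsp-3*, *hsp-4*, *crt-1*, *cnx-1* and *ero-1*), so the count is not specific to collagen. *pdi-2*, which encodes the protein disulfide isomerase subunit of prolyl hydroxylase, fell by 2.47 (SE 0.13, 5.55-fold), and its other probe set gave -1.21. *let-268*, whose lysyl hydroxylase is needed for collagen IV to leave muscle cells, fell by 2.21 (SE 0.11, 4.63-fold). These enzymes also serve cuticle collagens and other secreted proteins. The exception, the prolyl hydroxylase gene *phy-3*, lay at background.

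Heparan sulfate chains decorate perlecan, collagen XVIII, syndecan and the glypicans. Their synthesis and that of the related chondroitin were represented by 16 genes with a median of -0.68, of which 12 fell, 1 rose and 3 missed the threshold. The sulfotransferase gene *hst-6* fell by 1.75 (SE 0.085) and the epimerase gene *hse-5* fell by 1.56 (SE 0.12). *mig-22*, a chondroitin polymerising factor gene, rose by 0.38 (SE 0.082), whereas its other probe set gave 0.048, and it was not called with arrays centred on ribosomal protein genes.

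Body wall muscle genes are given since this tissue makes much of the collagen IV. A rise was called in 8 and a fall in 4 of 13 genes, with a median difference of 0.99 and summed levels of 136.2 to 137.6 in L1 against 126.6 to 129.5 in embryos. The myosin heavy chain gene *unc-54* and the troponin I gene *unc-27* rose by 2.77 (SE 0.091) and 2.19 (SE 0.12). The myosin chaperone gene *unc-45* fell by 1.24 and the cofilin gene *unc-60* fell by 1.14. *emb-9*, *let-2* and *ost-1* showed no called difference, while 8 of the 13 genes chosen for this list were higher. Muscle genes counted in the adhesion list went both ways: *pat-4* and *unc-97* fell by 1.44 and 1.19, and *unc-96* rose by 1.49. The contrast therefore depends on which muscle genes are listed, and the part of muscle RNA share in the members' values was not tested.

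**Figure D4:**
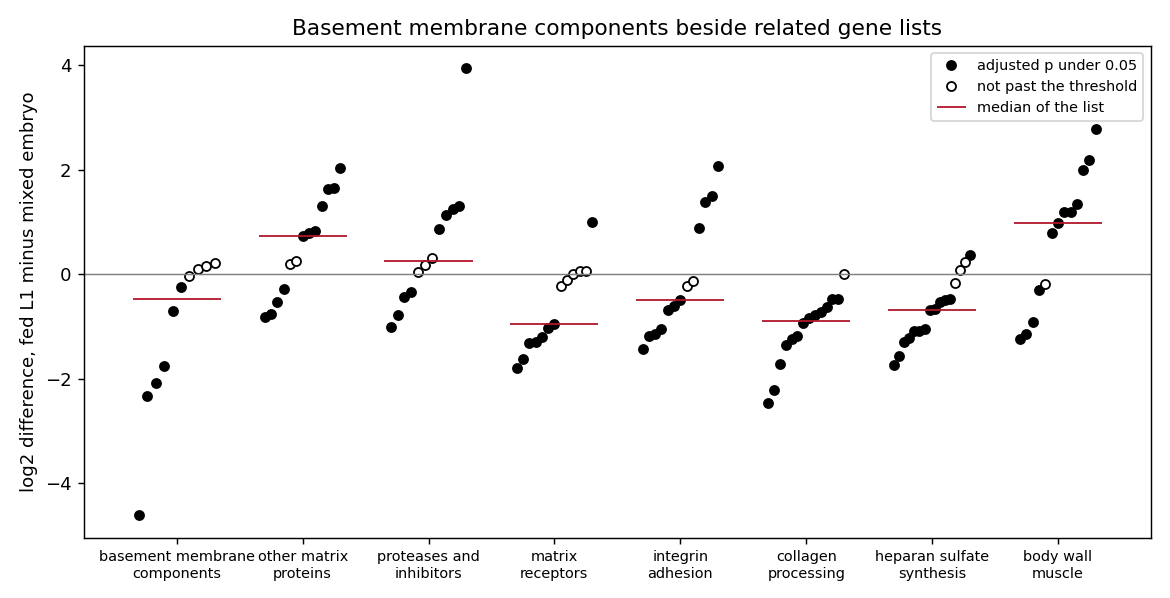
Log2 difference (fed L1 minus mixed embryo) of each gene in the basement membrane list and 7 related lists, ordered within a list, with filled circles for genes at an adjusted p under 0.05, open circles for the others and a red line at the median. The medians are -0.47 for the basement membrane genes, -0.89 for collagen processing and 0.73 for other matrix proteins.

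The genes closest in pattern were sought among 11321 genes above background in at least 1 stage, by the distance between profiles over the 6 arrays after each gene's mean was taken off. Nearest to the mean of *emb-9* and *let-2*, which changed by 0.19, were *mkk-4*, *D1025.1*, *T01B10.5*, *pssy-1* and *C32D5.11*, at distances of 0.11 to 0.19. Nearest to the mean of *epi-1*, *lam-1* and *lam-2*, which changed by -1.51, were *let-502*, *pes-4*, *unc-101*, *dif-1* and *trpp-3*, at distances of 0.079 to 0.13 and with changes of -1.50 to -1.59. Other members of the list were not among these 5 for either profile, and likeness over 6 arrays of 2 stages rests mainly on the difference between the stages.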

How the data were processed

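Affymetrix 1-channel arrays of biotin-labelled cRNA from 8 µg of total RNA were used, per the labels. The authors deposited RMA values, which are log2 expression values per probe set, per the submitters' processing notes. The RMA version, and whether all 6 arrays were normalized together, are not given in the sources used here. RMA equalises distributions and compresses low values.

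Of 22625 probe sets, 77 controls were left out. Names came from the platform annotation, with 20766 probe sets naming 1 gene, 887 several and 895 none, and chromosomes from RefSeq (WBcel235), matched by symbol for all 10 members. Groups came from sample titles. Differences were fitted with limma 3.58.1 in R 4.3.3 (lmFit, eBayes without trend, 2-sided) on 1 probe set per gene, and again over 22548 probe sets. The fit was first tested on simulated arrays with known changes. Background was the highest value, 5.43, of 32 foreign control probe sets. No pair of arrays was identical.

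Members, gene lists and comparisons were chosen with earlier results of these data known. Besides all members, the rule for named genes took, in each list, the 2 largest called rises and falls (or the largest difference where none passed), and the 5 genes most alike in pattern. Alternatives were another quantile normalization, centring on the median or on ribosomal protein genes, filters at the 25th and 50th percentile of level, array weights, a trended robust eBayes, the mean of probe sets, probe sets without related matches, and leaving out each array.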

Additional observations from a re-analysis of the deposited data

Results flagged for a closer look

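Probe sets listed under 2 gene records of 1 symbol were outside the measurement of the genes, and both such probe sets of these genes gave a signal above the foreign controls with stages that did not overlap. That of *cle-1* was higher in L1 by 1.73 (SE 0.11), at 8.68 ± 0.16 in L1 and 6.96 ± 0.15 in embryos (SD, n = 3 per stage). That of *unc-52* was higher in L1 by 0.38 (SE 0.14, limma adjusted p = 0.0324 over all probe sets), at 6.55 ± 0.25 in L1 and 6.17 ± 0.16 in embryos.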

How the results depend on the processing

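*epi-1*, *lam-1*, *lam-2* and *lam-3* stayed lower in L1 and past the threshold under all 16 alternatives run for each, with ranges of -1.05 to -0.58, -2.44 to -1.95, -2.12 to -1.62 and -4.97 to -3.80, and *nid-1* under all 15 (-2.68 to -2.13). The setting on probe sets without related matches could not measure *nid-1*. *unc-52* passed in 10 of 16. It missed the threshold after quantile normalization (-0.097), without genes under the 50th percentile (-0.25, adjusted p = 0.0543) and with trend and robust settings (-0.25, adjusted p = 0.0614), and ranged from -0.30 to -0.20 with 1 array left out. The small differences of the other genes turned sign: *cle-1* to -0.017 and *ost-1* to 0.051 after quantile normalization, *emb-9* to -0.18 on probe sets without related matches, and *emb-9*, *let-2* and *cle-1* to -0.13, -0.20 and -0.25 with ribosomal protein centring, where *ost-1* was at -0.38. With 1 array left out, *let-2* ranged from -0.0025 to 0.31 and *ost-1* from -0.087 to 0.053. Admitting probe sets under 2 records of 1 symbol, chosen after the data were seen, put *cle-1* at 1.73, *cle-1* minus *ost-1* at 1.75 and 1 member higher in L1. With the mean of probe sets, *epi-1* minus *lam-3*, *lam-1* minus *epi-1* and *unc-52* minus *nid-1* changed by 3.11, -1.65 and 1.62. Ribosomal protein centring gave 9686 genes lower in L1 (5339 as deposited), 12 receptors that fell, 0 heparan sulfate genes that rose, 3 yolk and 3 sperm markers that fell and 2 sperm markers that rose. Some of these genes, such as *dgn-2* and *dgn-3*, lay at background in both stages. A filter at the 50th percentile, with fewer genes tested, left 3274 genes higher (5685 without it) and 4030 lower (5339 without it), and *cle-1* was not among those tested. Leaving out 1 array gave 1 to 2 heparan sulfate genes and 0 to 1 yolk markers that rose. Other causes were not tested. No paired analysis was possible, since the embryo arrays came from an earlier series and the sample titles link no embryo array to an L1 array. Values near 5.43 cannot be told apart from background.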
